A study of Mus musculus with 68 samples.

Results

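The 40 genes described here belong to cell division. They are 15 genes of DNA replication, 22 genes of mitosis and 3 transcription factors that regulate them, chosen by symbol and found as 40 of the 23356 rows of an RNA sequencing table of mouse intestine. Every one of the 40 reached 1 FPKM (fragments scaled by transcript length and library size) in all 23 specimens, 28 of them reached 5 FPKM in all specimens, and 14 reached 10 FPKM.

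The study asked how loss of Cftr, the chloride and bicarbonate channel of intestinal epithelium, bears on tumour formation with and without the ApcMin allele. Bulk RNA was read from 12 groups of C57BL/6 mice aged 3 months, with 2 specimens in each group except where stated. From ApcMin mice there were duodenal and colon tumours of Cftr heterozygous animals (named a knockdown in the labels), and ileum and colon tumours of animals labelled Cftr knockout and of Cftr wildtype animals. From Apc wildtype mice labelled Cftr knockout there were duodenal tumours, 1 colon tumour, normal duodenum and normal colon. From Apc wildtype, Cftr wildtype mice there were normal duodenum and normal colon. The knockout in Apc wildtype mice is a floxed Cftr with Cre driven by the Villin promoter, which acts in intestinal epithelium, per the labels' protocols. For ApcMin mice the labels' protocols do not say which Cftr allele was used. Both tumours of an ApcMin group come from 1 animal number, so Cftr genotype and animal cannot be told apart in those groups.

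Cell division uses these genes in order. Before S phase, Cdc6 and Cdt1 load the MCM helicase (Mcm2 to Mcm7) onto DNA, cyclin E starts synthesis, PCNA clamps the polymerase, and ribonucleotide reductase, thymidylate synthase and thymidine kinase supply nucleotides. In mitosis, Cdk1 with cyclins A and B, the Aurora and Polo kinases, kinesins and the spindle checkpoint separate the chromosomes. Replication genes are known targets of E2F factors. Mitosis genes are known to be held down outside the cycle by the DREAM complex through a promoter element called the CHR, and to be raised later by B-Myb (Mybl2) and Foxm1, often with NF-Y bound at CCAAT boxes. In normal intestinal epithelium division takes place in the crypts. Bulk tissue and tumours also hold other dividing cells, so the levels given here are not those of crypt cells alone.

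Several features of the series touch the results. Gene-level Cftr was 30.5 and 25.9 FPKM in colon labelled knockout, against 22.2 and 21.7 FPKM in wildtype colon, and 33.0 and 47.2 FPKM in duodenum labelled knockout, against 31.3 and 32.0 FPKM in wildtype duodenum. Such values do not check the labels, since they also count exons outside a deleted stretch, so groups are called by their labels. The 23 specimens carry 10 animal numbers, although the design text counts 23 mice. Normal colon carries the label of whole tissue and normal duodenum that of epithelium, but the design text speaks of epithelial cells for colon and of duodenum with its villi removed, so organ and preparation cannot be told apart. The 2 wildtype duodenum specimens differed by no more than lanes of 1 library do (a ratio of 0.968 in run 1 and 0.995 in run 2, where 1 means no excess, against 2.49 to 8.40 in the other groups). They were counted as 1 sample. Xist, which female cells express, was 24.0 to 55.6 FPKM in the 12 ApcMin tumours. In the 11 Apc wildtype specimens it was 0.0212 to 0.461 FPKM, except for 34.2 FPKM in 1 duodenal tumour, so ApcMin and sex cannot be told apart. In wildtype colon 2 the run 1 library held small-intestinal transcripts (Sis, sucrase-isomaltase, was 67.6 FPKM in run 1 and 0.348 FPKM in run 2). The run 1 library of the Apc wildtype colon tumour also held more of them (Sis was 6.47 FPKM in run 1 and 0.521 FPKM in run 2). ApcMin colon tumours labelled knockout, read in run 2 only, held them too, with Sis at 16.95 and 6.30 FPKM. In Cftr wildtype ApcMin colon tumours Sis was 1.79 and 0.408 FPKM. The source of these transcripts in the tumours was not tested. Relative depth differed by up to 1.84-fold between columns.

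Promoter sequence separated the lists in a way that the choice of genes did not use. A RefSeq window of 300 bases (250 before to 50 after the start) was held for 32 of the 40 genes, and both strands were searched. The CHR (TTTGAA or TTCGAA) was found in 12 of 17 mitosis promoters and 2 of 13 replication promoters, against 19.4% of 27025 promoters of all genes. The CCAAT box was found in 14 of 17 mitosis and 8 of 13 replication promoters, against 37.9% of all, and both motifs together in 12 of 17 and 2 of 13, against 7.70%. The E2F motif (TTTCCCGC or TTTGGCGC or TTTCGCGC or TTTGCCGC) was found in 1 of 17 mitosis and 6 of 13 replication promoters, against 2.32% of all. Neither of the 2 regulator windows, those of E2f1 and Mybl2, held any of the 3 motifs. The E2f1 window (chr2:154569377-154569676, minus strand) lies inside the gene as annotated in GENCODE M21, which starts at 154569892. Bases before that start were not searched. The windows of Mcm7 and Cdc6 also lie inside their GENCODE genes. These shares describe letters in a window and show no binding. To let the motifs be seen, the 200 bases before the start are given for 2 mitosis genes (Top2a, the topoisomerase that untangles chromosomes, and Ccnb2, cyclin B2) and 2 replication genes (Mcm6 and Mcm7, subunits of the MCM helicase), 5′ to 3′ on the gene's strand. Capitals mark every CHR, CCAAT and E2F motif on either strand. The 4 genes lie on the minus strand of RefSeq GRCm38.p6, with the printed stretches at chr11:99024190-99024389 for Top2a, chr9:70421555-70421754 for Ccnb2, chr1:128359706-128359905 for Mcm6 and chr5:138171884-138172083 for Mcm7.
Top2a: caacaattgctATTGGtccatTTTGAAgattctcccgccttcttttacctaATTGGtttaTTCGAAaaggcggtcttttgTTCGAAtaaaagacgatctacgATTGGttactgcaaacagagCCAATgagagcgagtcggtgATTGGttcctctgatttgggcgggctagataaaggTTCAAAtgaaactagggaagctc
Ccnb2: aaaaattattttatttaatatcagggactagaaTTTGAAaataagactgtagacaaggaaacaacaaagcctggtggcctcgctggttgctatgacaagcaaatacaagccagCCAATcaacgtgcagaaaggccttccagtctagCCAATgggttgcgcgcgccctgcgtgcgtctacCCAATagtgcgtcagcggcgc
Mcm6: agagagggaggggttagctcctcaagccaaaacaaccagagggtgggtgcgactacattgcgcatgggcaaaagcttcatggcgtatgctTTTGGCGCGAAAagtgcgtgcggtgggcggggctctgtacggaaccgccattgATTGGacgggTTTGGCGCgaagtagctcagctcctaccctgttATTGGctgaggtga
Mcm7: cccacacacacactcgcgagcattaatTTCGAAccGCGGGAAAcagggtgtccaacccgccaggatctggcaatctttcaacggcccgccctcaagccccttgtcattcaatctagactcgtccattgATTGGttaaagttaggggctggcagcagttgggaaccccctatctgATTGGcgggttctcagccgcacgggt
Within the printed bases, counted from the start, Top2a has CHR motifs at -179, -140, -120 and -23, with CCAAT boxes at -189, -149, -98, -78 and -58. Ccnb2 has 1 CHR at -167 and CCAAT boxes at -87, -54 and -21. In Mcm6 the E2F matches at -110 and -106 overlap on opposite strands, another lies at -47, and CCAAT boxes lie at -57 and -14. Mcm7, 1 of the 2 replication genes with a CHR, has it at -173, beside an E2F match at -165 and CCAAT boxes at -72 and -26. The searched window also held, outside the printed bases, another CHR in Ccnb2, another CCAAT box in Top2a, and another E2F match and CCAAT box in Mcm7.

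Both lists were lowest in wildtype colon. The mean of the 15 replication genes, as log2(FPKM + 1), was 3.56 in colon labelled knockout and 3.34 in wildtype colon, and 4.16 in duodenum labelled knockout and 4.05 in wildtype duodenum. The same mean was 4.50 in ileum tumours of ApcMin mice labelled knockout, the highest of the 12 groups, and 4.37 in those of ApcMin Cftr wildtype mice. The mean of the 22 mitosis genes was 3.77 in colon labelled knockout and 3.14 in wildtype colon, and 3.91 in duodenum labelled knockout and 3.98 in wildtype duodenum. It was 4.32 in ileum tumours labelled knockout and 4.31 in ApcMin Cftr wildtype colon tumours. As a description over 22 samples, which share libraries and depth between the lists, the 2 list means had a Pearson r of 0.917.

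**Figure D1:**
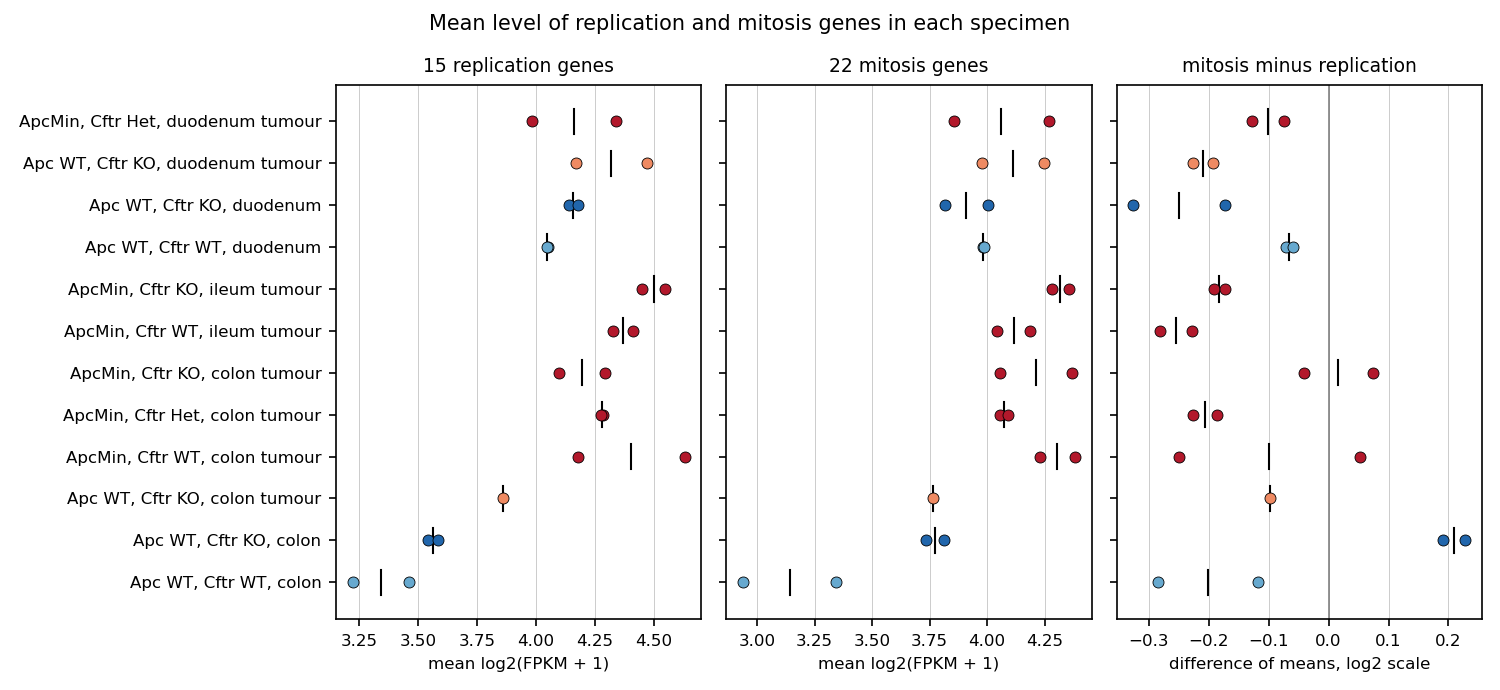
Mean log2(FPKM + 1) of 15 replication genes, of 22 mitosis genes, and the mitosis mean minus the replication mean (horizontal axes), with the 12 groups down the page, points for specimens and bars for group means. Wildtype colon is lowest for both lists, and colon labelled knockout, at 0.19 and 0.23, lies furthest to the right for the difference between lists.

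The balance between the lists lay furthest toward mitosis in colon labelled knockout. The mitosis mean minus the replication mean was 0.19 and 0.23 in colon labelled knockout, against -0.12 and -0.28 in wildtype colon. It was -0.33 and -0.17 in duodenum labelled knockout, against -0.07 and -0.06 in wildtype duodenum. It was above 0 in no other normal group. The difference averages genes on a log scale and is a description, with no test.

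Levels of 5 members show the spread over groups. Mki67, the antigen read by Ki-67 staining, was 13.1 to 26.5 FPKM in the colon and ileum tumours of ApcMin mice. It was 13.1 and 14.0 FPKM in Cftr heterozygous colon tumours, below all other tumours, and 11.1 to 22.2 FPKM in the normal tissues. Ccnb1, cyclin B1, was 7.83 and 12.8 FPKM in wildtype colon, and 18.7 to 32.7 FPKM in the colon and ileum tumours. Cdk1, the mitotic kinase that cyclin B1 activates, was 7.09 and 10.3 FPKM in wildtype colon, and 15.2 to 27.4 FPKM in the tumours. Single libraries of Cdk1 gave 12.4 to 15.6 FPKM in colon labelled knockout and 16.2 to 18.7 FPKM in normal duodenum. Mcm2, a subunit of the MCM helicase, was 9.32 to 11.5 FPKM in normal colon of both genotypes, 13.8 to 15.3 FPKM in normal duodenum, and 13.3 to 28.3 FPKM in the tumours. Pcna, the polymerase clamp, was 70.3 to 92.4 FPKM in normal colon, 135 to 143 FPKM in normal duodenum, and 119 to 208 FPKM in the tumours. Mki67 was the member of the mitosis list whose levels followed the rest of its list least closely (r = 0.62 over 22 samples, a description), and the genes most like it were Cenpe, a kinetochore motor (0.85), Kif11, a spindle motor (0.79), and Ccna2, cyclin A2 (0.73). In the replication list Ccne2, cyclin E2, followed the rest least (0.61) and Mcm5 most (0.99).

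**Figure D2:**
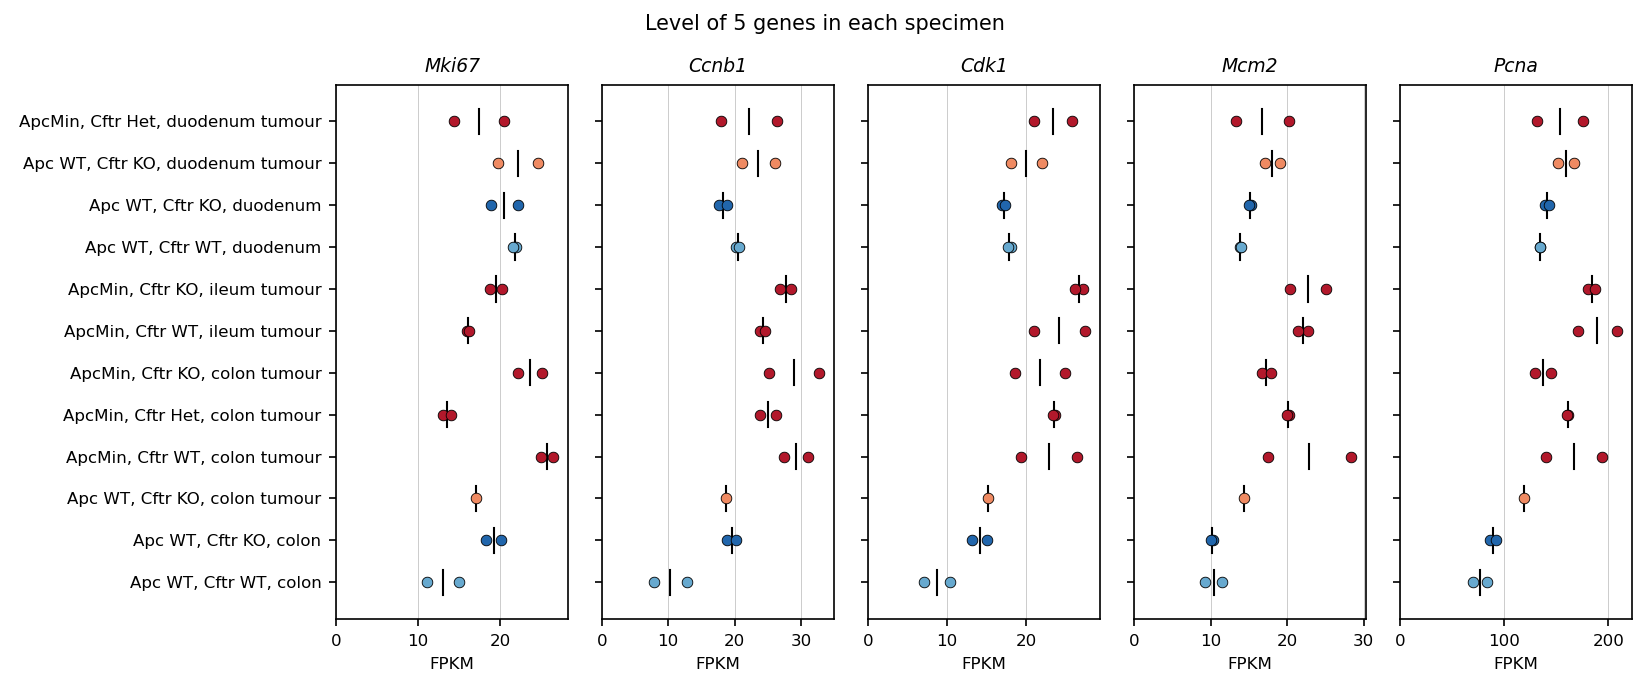
FPKM of Mki67, Ccnb1, Cdk1, Mcm2 and Pcna (horizontal axes) in every specimen, with the 12 groups down the page and 1 point per specimen. Wildtype colon has the lowest point of every gene, and Mki67 is the gene for which colon tumours of Cftr heterozygous ApcMin mice, at 13.1 and 14.0 FPKM, lie among the normal tissues.

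**Figure D3:**
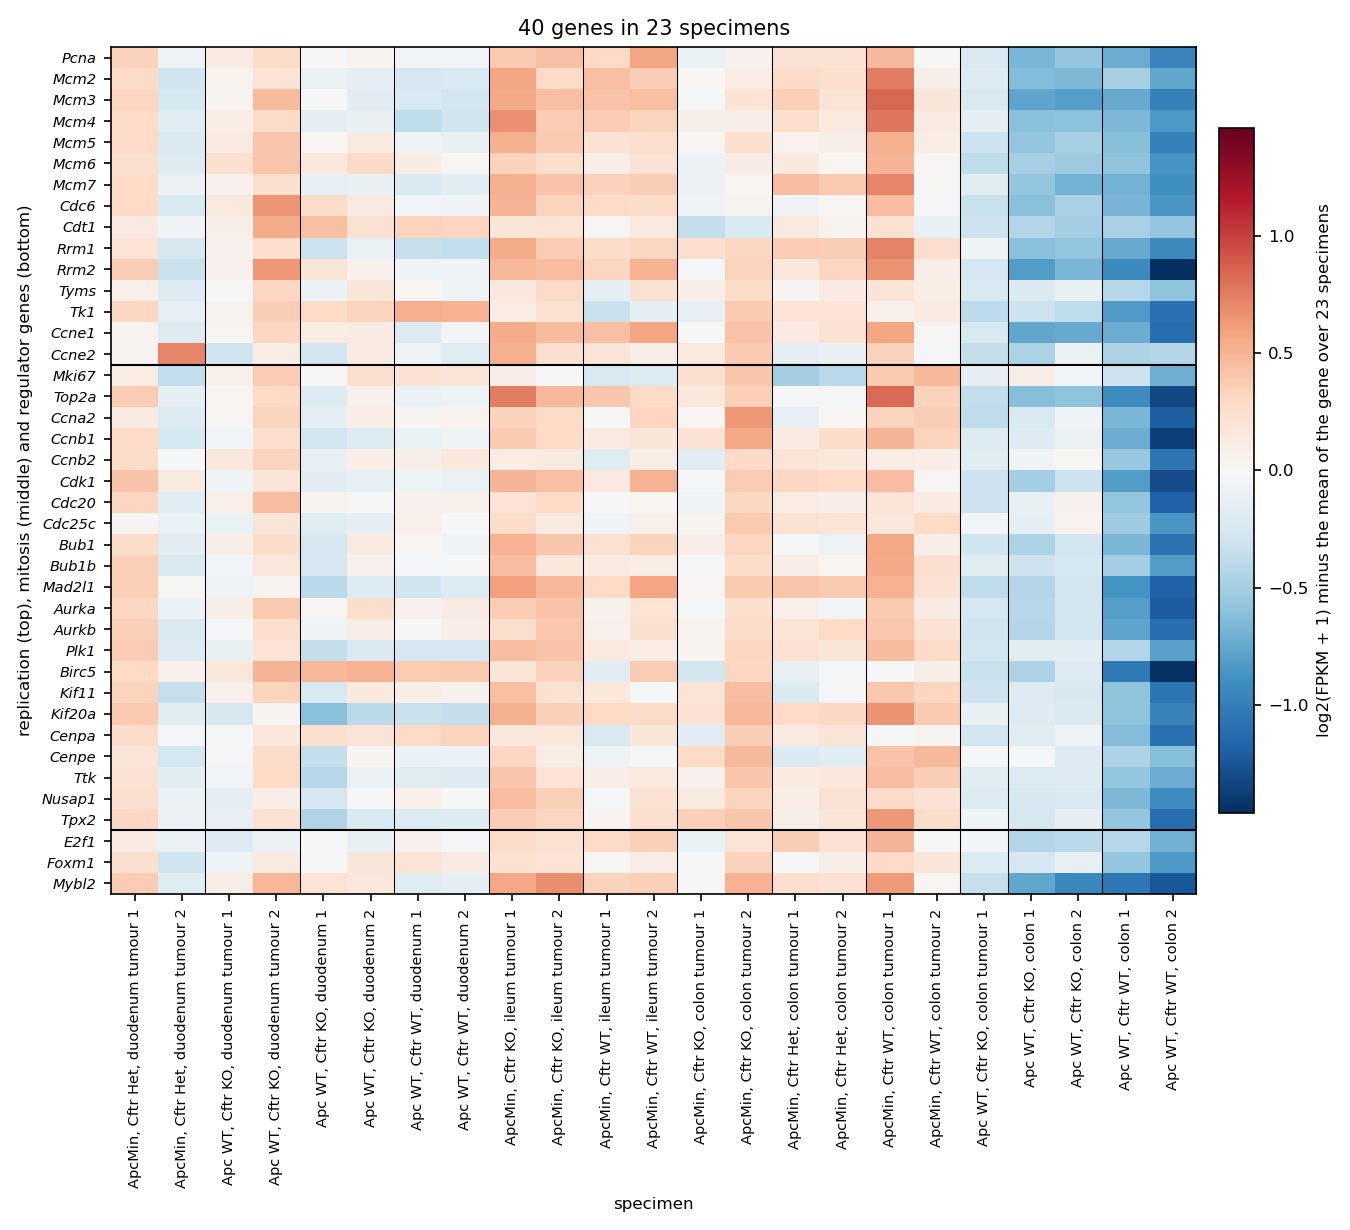
Level of the 40 genes (rows) in the 23 specimens (columns), as log2(FPKM + 1) minus the gene's mean over specimens, grouped by list and by group. Wildtype colon is below the mean for nearly the whole mitosis list, while colon labelled knockout lies further below it for replication than for mitosis.

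In normal colon, the mitosis genes were higher in both specimens labelled knockout than in either wildtype specimen, while the replication genes lay closer together. All 22 mitosis genes had a positive log2 change (median 0.63, 0.39 to 0.92), as had 14 of 15 replication genes (median 0.22, -0.02 to 0.62), while 50.7% of all 14098 genes tested were positive with a median of 0.00. None of the 40 members passed an adjusted p of 0.05 (limma with Benjamini-Hochberg adjustment), as was the case for 0% of all genes. At an unadjusted p under 0.05, 24 members were higher, of which 21 were mitosis genes, 2 were replication genes and 1 was Foxm1, against 3.36% of all genes. In 34 members, of which 22 were mitosis and 10 replication genes, the 2 specimens labelled knockout both lay above the 2 wildtype specimens, against 26.5% of all genes. Wildtype colon 2 moves these values: without it 11 members were higher at an unadjusted p under 0.05, and the median changes were 0.42 for mitosis and 0.08 for replication. Without wildtype colon 1 the medians were 0.82 and 0.34, and 1 member, Ccnb1 (1.22), passed the adjusted p. The mitosis median was 0.64 without the run 1 library of wildtype colon 2, 0.59 in run 1 alone and 0.63 in run 2 alone.

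The cyclins and their partners held the smallest p values of the mitosis list. Ccnb2 was 28.1 and 29.6 FPKM in colon labelled knockout, against 19.6 and 13.5 FPKM in wildtype colon. Its log2 change was 0.79 ± 0.18 (SE), with an adjusted p of 0.428 from limma. Ccnb1 was 18.9 and 20.2 FPKM in colon labelled knockout, against 12.8 and 7.83 FPKM in wildtype colon, a log2 change of 0.90 ± 0.21 with the same adjusted p. Cdc25c, the phosphatase that switches on Cdk1, was 3.09 and 3.71 FPKM in colon labelled knockout, against 2.15 and 1.51 FPKM in wildtype colon, a log2 change of 0.64 ± 0.15. Groups did not overlap for any of the 3. Birc5 (survivin, a subunit of the chromosomal passenger complex) was 30.3 and 36.4 FPKM in colon labelled knockout, against 19.9 and 14.7 FPKM in wildtype colon, and Ccna2 was 29.7 and 33.6 FPKM in colon labelled knockout, against 21.5 and 14.4 FPKM in wildtype colon. Mki67 was 20.1 and 18.3 FPKM in colon labelled knockout, against 15.0 and 11.1 FPKM in wildtype colon, with an adjusted p of 0.536. The 1 mitosis gene that missed an unadjusted p of 0.05 was Bub1b, a spindle checkpoint kinase, at 0.39.

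The replication genes with the smallest p values in normal colon supply nucleotides. Tk1, thymidine kinase, was 21.8 and 20.8 FPKM in colon labelled knockout, against 14.9 and 12.3 FPKM in wildtype colon, a log2 change of 0.62 ± 0.17 with an adjusted p of 0.507 from limma. Tyms, thymidylate synthase, was 8.56 and 9.31 FPKM in colon labelled knockout, against 7.29 and 6.38 FPKM in wildtype colon, at 0.34 ± 0.15. Rrm2, the regulated subunit of ribonucleotide reductase, was 9.65 and 10.8 FPKM in colon labelled knockout, against 8.80 and 5.80 FPKM in wildtype colon, at 0.46 ± 0.26. Groups did not overlap for these 3 genes. Mcm2 was 10.3 and 10.1 FPKM in colon labelled knockout, against 11.5 and 9.32 FPKM in wildtype colon, and these overlapped. Of the regulators, Foxm1, an activator of mitosis genes, was 5.62 and 6.19 FPKM in colon labelled knockout, against 4.31 and 3.37 FPKM in wildtype colon, at 0.52 ± 0.17 with an adjusted p of 0.536. E2f1, an activator of replication genes, was 3.03 and 3.13 FPKM in colon labelled knockout, against 3.07 and 2.34 FPKM in wildtype colon. Mybl2, the B-Myb factor, was 2.56 and 2.14 FPKM in colon labelled knockout, against 1.92 and 1.54 FPKM in wildtype colon.

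Genes of the same pathways outside the 40 gave a like split in normal colon. Of 26 other mitosis genes, 25 were positive (median 0.61) and 24 were higher at an unadjusted p under 0.05. Of 26 other replication genes, 24 were positive (median 0.17) and 4 were higher at an unadjusted p under 0.05. No gene of either list passed the adjusted p in limma. Ube2c, the ubiquitin-conjugating enzyme of the anaphase-promoting complex, was 49.5 and 60.1 FPKM in colon labelled knockout, against 35.6 and 22.2 FPKM in wildtype colon. Ckap2, a spindle protein, was 6.31 and 6.95 FPKM in colon labelled knockout, against 3.01 and 3.59 FPKM in wildtype colon. The 7 G1 cyclins and kinases and the 10 CDK inhibitors and pocket proteins each had a median change of 0.03.

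Several lists of cell markers also moved in normal colon, and others hardly did. All 8 epithelial markers were positive (median 0.42), and their mean, as log2(FPKM + 1), was 9.40 and 9.45 in colon labelled knockout, against 9.09 and 8.91 in wildtype colon. All 5 B cell markers were negative (median -1.68), with a mean of 1.74 and 2.40 in colon labelled knockout, against 4.09 and 3.62 in wildtype colon. All 4 germinal centre B cell markers (median -0.36) and all 6 T cell markers (median -0.58) were also negative. So were all 5 adipocyte markers (median -0.84) and all 4 endothelial markers (median -0.28). All 4 crypt stem cell markers were negative, from -1.69 (Olfm4) to -0.05 (Smoc2), with a mean of 1.99 and 2.10 against 2.14 and 3.23. In wildtype colon 2 that mean was 3.46 in the run 1 library, which held small-intestinal transcripts, and 2.33 in run 2. Small-intestinal enterocyte markers were mostly negative, down to -3.60 (Fabp1), but Fabp2 was at 1.25 and Alpi at 0.52. Their mean was 2.83 and 2.81 in colon labelled knockout, against 2.92 and 6.10 in wildtype colon. In wildtype colon 2 it was 6.95 in the run 1 library and 2.66 in run 2. All colonocyte markers were positive, from 0.03 (Car4) to 1.50 (Car1). Smooth muscle markers had a mean of 8.80 and 8.40 in colon labelled knockout, against 8.78 and 8.70 in wildtype colon. Macrophage markers had 3.95 and 4.16 against 4.05 and 3.98, and fibroblast markers 5.87 and 5.57 against 5.78 and 5.85. No marker passed the adjusted p in limma, no B cell marker was at 0 in either group, and the part of cell makeup in the mitosis values was not tested. In bulk tissue, fewer cells of a type and less RNA per cell cannot be told apart.

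**Figure D4:**
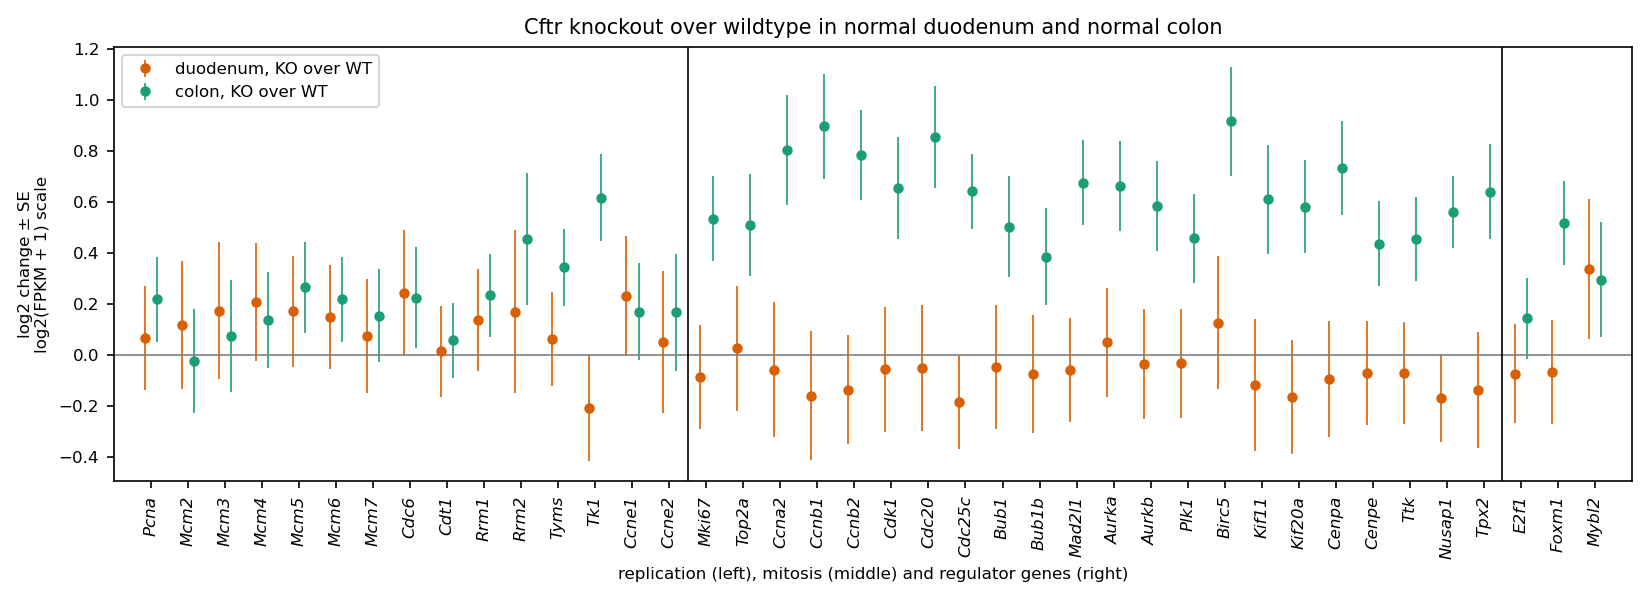
Log2 change of each of the 40 genes in tissue labelled Cftr knockout over Cftr wildtype tissue (vertical axis, with SE bars from limma), in duodenum and in colon, with the genes along the horizontal axis by list. In colon the mitosis genes lie at 0.39 to 0.92 and most replication genes nearer 0, and in duodenum both lists lie close to 0, with most mitosis genes just below it.

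In normal duodenum the lists lay close to 0 and on opposite sides of it. Replication genes were positive in 14 of 15 (median 0.14) and mitosis genes in 3 of 22 (median -0.07). None of the 40 passed the adjusted p in limma, against 0% of all genes, and none passed an unadjusted p of 0.05 in either direction, against 2.61% of all genes. Wildtype duodenum counts as 1 sample here, so its spread is taken from the other groups. Mybl2 was 5.93 and 5.68 FPKM in duodenum labelled knockout, against 4.31 and 4.46 FPKM in wildtype duodenum, at a log2 change of 0.34. Ccne1, cyclin E1, was 7.74 and 7.83 FPKM in duodenum labelled knockout, against 6.08 and 6.86 FPKM in wildtype duodenum. Cdc25c was 3.02 and 3.15 FPKM in duodenum labelled knockout, against 3.79 and 3.50 FPKM in wildtype duodenum. Tk1 was the replication gene below 0, with 33.5 and 34.3 FPKM in duodenum labelled knockout, against 39.4 and 39.1 FPKM in wildtype duodenum. Beyond the 40, Cdkn2c, an inhibitor of Cdk4 and Cdk6, was 7.12 and 6.81 FPKM in duodenum labelled knockout, against 11.4 and 9.87 FPKM in wildtype duodenum, at -0.55 ± 0.16 with an adjusted p of 0.772 from limma. Other replication genes were positive in 21 of 26 (median 0.06) and other mitosis genes in 5 of 26 (median -0.12). Of cell markers, every epithelial one was positive, from 0.11 (Cdh1) to 0.39 (Krt20). Every endothelial marker was negative, from -0.60 (Plvap) to -0.44 (Pecam1). Crypt stem cell markers were all negative, from -0.49 (Olfm4) to -0.09 (Smoc2). Adipocyte markers ran from -2.87 (Adipoq) to -1.70 (Fabp4), except Cidec at 0.10. B cell markers lay on both sides of 0, from -0.09 (Cd79a) to 0.17 (Cd79b), but the 2 specimens labelled knockout differed widely. Their B cell mean, as log2(FPKM + 1), was 4.18 and 1.55, against 2.86 and 2.75 in wildtype duodenum. The germinal centre B cell mean was 1.96 and 1.16 in duodenum labelled knockout, against 1.35 and 1.40 in wildtype duodenum. The part of cell makeup in these values was not tested.

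The change in duodenum minus the change in colon tested whether the organs differed. No member passed the adjusted p in limma, against 0% of all genes. At an unadjusted p under 0.05, 17 members were lower, against 1.43% of all genes, and they were 15 mitosis genes, Tk1 and Foxm1. All 22 mitosis genes were negative, with a median of -0.73 and a range of -1.06 to -0.46. The replication median was -0.08, with 5 of 15 positive. Cdc25c differed by -0.83, Ccnb2 by -0.92, Ccnb1 by -1.06 and Tk1 by -0.82 ± 0.27. The mitosis median was -0.51 without wildtype colon 2 and -0.92 without wildtype colon 1. Among genes beyond the 40, other mitosis genes had a median of -0.69 (0 of 26 positive) and other replication genes of -0.12 (8 of 26 positive).

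In ApcMin colon tumours the list medians by Cftr label were small and negative. No member passed the adjusted p in limma, against 0.0355% of all genes, and 1 passed an unadjusted p of 0.05, against 12.2% of all genes. That gene was Cdt1, the loader of the helicase, at 9.40 and 10.3 FPKM in colon tumours labelled knockout, against 14.4 and 11.3 FPKM in Cftr wildtype colon tumours, a log2 change of -0.34 ± 0.15 with an adjusted p of 0.403. Replication genes had a median of -0.22 (3 of 15 positive) and mitosis genes of -0.07 (1 of 22 positive). The Cftr wildtype colon tumours differed widely from each other. Mcm7 was 29.3 and 31.8 FPKM in colon tumours labelled knockout, against 51.8 and 31.5 FPKM in Cftr wildtype colon tumours, and Top2a was 39.4 and 45.1 FPKM in colon tumours labelled knockout, against 63.1 and 44.7 FPKM in Cftr wildtype colon tumours. Without wildtype colon tumour 2, 6 members passed and all were lower in tumours labelled knockout, Mcm7 and Mcm3 at -0.74 each among them. All 12 small-intestinal enterocyte markers were positive in this comparison (median 1.82), and their part in it was not tested.

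In ApcMin ileum tumours all 22 mitosis genes had a positive log2 change in specimens labelled knockout (median 0.19), as had 13 of 15 replication genes (median 0.13). The median over all genes tested was 0.008. Each group comes from 1 animal number, so a shift shared by these genes cannot be told apart from a difference between animals. No member passed the adjusted p in limma, against 0.241% of all genes, and 1 passed an unadjusted p of 0.05, against 6.45% of all genes. This was Tk1, at 29.4 and 32.0 FPKM in ileum tumours labelled knockout, against 21.5 and 24.5 FPKM in Cftr wildtype ileum tumours, a log2 change of 0.40 ± 0.17 with an adjusted p of 0.727. Plk1, a mitotic kinase of the Polo family, was 29.2 and 28.6 FPKM in ileum tumours labelled knockout, against 23.4 and 22.9 FPKM in Cftr wildtype ileum tumours. Nusap1, a spindle-binding protein, was 17.6 and 16.3 FPKM in ileum tumours labelled knockout, against 12.4 and 14.9 FPKM in Cftr wildtype ileum tumours. Groups did not overlap for these 3 genes.

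ApcMin colon tumours of Cftr wildtype mice held more of every member than wildtype colon, in run 2 libraries. All 40 rose at an adjusted p of 0.05 in limma, against 19.1% of all genes that rose. Median log2 changes were 1.14 for replication (0.59 to 1.69) and 1.19 for mitosis (0.91 to 1.70). When the fit held only the groups compared, with 2 specimens each, 0 of the 40 passed, so the calls rest on the spread shared with the other groups. These tumours also differ from the colon in sex and animal, which cannot be told apart from the tumour here.

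**Figure D5:**
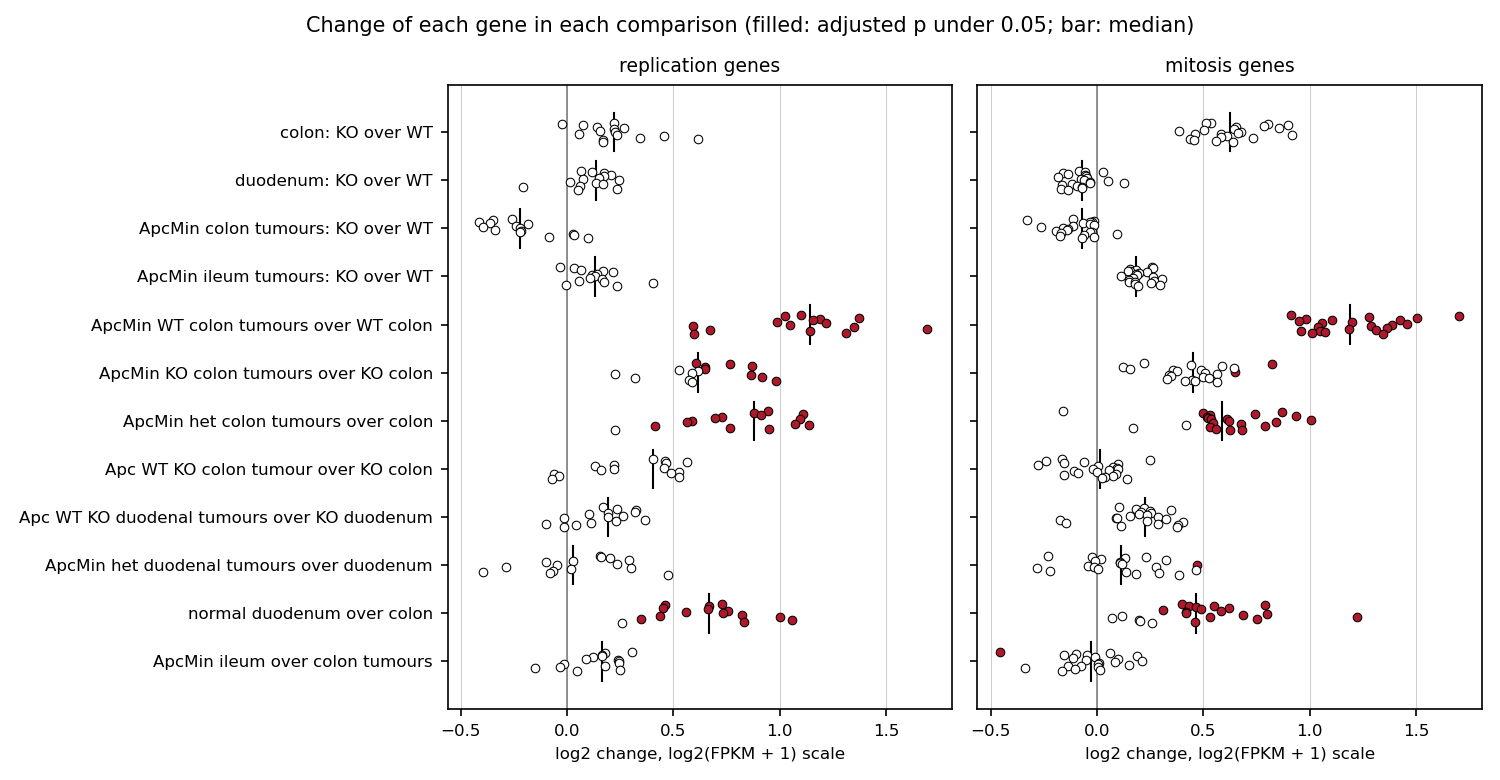
Log2 change of each gene (points, horizontal axis) in 12 comparisons (rows), for the replication genes and the mitosis genes apart, with filled points for an adjusted p under 0.05 in limma and bars for medians. The comparison of Cftr wildtype ApcMin colon tumours with wildtype colon has all 15 replication and 22 mitosis points filled, and the comparisons by Cftr label have none.

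Rrm2, Mcm3, Rrm1 and Ccne1 had the largest changes among replication genes that passed without overlap in Cftr wildtype ApcMin colon tumours. Rrm2 was 28.4 and 19.0 FPKM in the tumours, against 8.34 and 5.04 FPKM in wildtype colon, a rise of 1.69 ± 0.26 with an adjusted p of 0.00134 from limma. Mcm3 was 35.7 and 22.3 FPKM in the tumours, against 11.7 and 9.05 FPKM in wildtype colon, a rise of 1.37 ± 0.20. Rrm1, the large subunit of ribonucleotide reductase, was 38.7 and 27.7 FPKM in the tumours, against 13.6 and 11.0 FPKM in wildtype colon, a rise of 1.35 ± 0.15. Ccne1 was 11.1 and 7.22 FPKM in the tumours, against 3.59 and 2.51 FPKM in wildtype colon. The groups did not overlap for these 4 genes. The smallest changes of the list were those of Cdt1 (0.59), Ccne2 (0.60) and Tyms (0.67).

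Top2a had the largest change of the mitosis list in the same tumours. It was 63.1 and 44.7 FPKM in the tumours, against 18.6 and 13.1 FPKM in wildtype colon, a rise of 1.70 ± 0.19 with an adjusted p of 0.000497 from limma. Ccnb1 was 31.0 and 27.4 FPKM in the tumours, against 12.9 and 7.14 FPKM in wildtype colon, a rise of 1.50 ± 0.21. Mad2l1, a spindle checkpoint protein, was 35.0 and 28.2 FPKM in the tumours, against 12.2 and 9.56 FPKM in wildtype colon. Groups did not overlap for any of the 3. Mybl2 was 8.24 and 5.12 FPKM in the tumours, against 1.90 and 1.41 FPKM in wildtype colon, a rise of 1.51. The other regulators rose by less, E2f1 by 0.93 and Foxm1 by 0.95.

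Beyond the 40, most cycle genes rose in Cftr wildtype ApcMin colon tumours and several brakes fell. Of all genes that passed the adjusted p in this comparison, 50.3% were higher in the tumours and the rest lower. Of 26 other replication genes 25 rose (median 0.88), Slbp at 0.05 being the one that did not pass. Of 26 other mitosis genes 25 rose (median 1.10) and Pttg1, securin, fell by 0.55. Of the 7 G1 genes, Cdk4, the kinase of early G1, was 174 and 111 FPKM in the tumours, against 61.5 and 61.4 FPKM in wildtype colon, a rise of 1.16; Ccnd1 (1.12), Myc (0.98) and Cdk2 (0.46) also rose and Ccnd3 fell by 0.48. Of the 10 CDK inhibitors and pocket proteins Cdkn2a rose (2.15) and 5 fell, of which Cdkn2b, an inhibitor of Cdk4 and Cdk6, was 15.6 and 23.8 FPKM in the tumours, against 52.9 and 57.0 FPKM in wildtype colon. All 6 smooth muscle markers fell (median -3.26) and all 5 B cell markers fell (median -2.52), while 1 of 8 epithelial markers rose (median -0.02), and their part in these changes was not tested.

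In ApcMin colon tumours labelled knockout, replication genes made up most of the members that rose over colon labelled knockout. In run 2 libraries 11 of 40 passed the adjusted p in limma, all higher, against 5.26% of all genes that rose. They were 8 replication genes (Pcna, Mcm2, Mcm3, Mcm4, Mcm5, Rrm1, Rrm2 and Ccne1), the mitosis genes Top2a and Mad2l1, and Mybl2. All 40 were positive, with medians of 0.62 for replication and 0.45 for mitosis. Whether these changes differ from those of Cftr wildtype mice was not tested. Ccne1 was 7.14 and 9.85 FPKM in the tumours, against 3.56 and 3.95 FPKM in colon labelled knockout, a rise of 0.98 with an adjusted p of 0.0153. Rrm1 was 27.5 and 28.5 FPKM in the tumours, against 14.6 and 15.2 FPKM in colon labelled knockout, a rise of 0.87. Top2a was 39.4 and 45.1 FPKM in the tumours, against 23.0 and 23.8 FPKM in colon labelled knockout, a rise of 0.82 ± 0.19. The groups did not overlap for these genes. Mybl2 was 4.99 and 7.54 FPKM in the tumours, against 2.56 and 2.04 FPKM in colon labelled knockout, a rise of 1.12 ± 0.22, while E2f1 (0.52, adjusted p = 0.0836) and Foxm1 (0.35, adjusted p = 0.111) did not pass. The count rests on single specimens, being 0 without colon labelled knockout 1 or without tumour 2, 1 without colon labelled knockout 2 and 5 without tumour 1; it was 6 with only the groups compared and 0 with the replicate block. Beyond the 40, 6 other replication genes rose, among them Gins1 (0.87) and Rfc3 (0.73), 4 other mitosis genes rose and 2 fell, and Ccnd1 (0.94), Cdk4 (0.76), Myc (1.02) and Cdk2 (0.45) rose. Small-intestinal enterocyte markers rose in 7 of 12 (median 2.10). Smooth muscle markers had a mean, as log2(FPKM + 1), of 6.44 and 4.98 in the tumours, against 8.78 and 8.39 in colon labelled knockout, and 1 of 6 fell (median -2.99). Colonocyte markers had a mean of 7.19 and 8.22 in the tumours, against 10.1 and 10.4 in colon labelled knockout, and none of 4 passed (median -2.75). The part of these cells in the changes was not tested.

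Colon tumours of Cftr heterozygous ApcMin mice were set against normal colon of both genotypes in run 1 libraries. In limma 36 of 40 members rose, against 26.8% of all genes, with medians of 0.88 for replication and 0.59 for mitosis. The 4 that did not pass were Ccne2 (0.22), Kif11 (0.42), Cenpe (0.17) and Mki67 (-0.16). Mcm7 was 43.1 and 41.0 FPKM in the tumours, against 20.9 and 19.0 FPKM in colon labelled knockout and 19.5 and 17.3 FPKM in wildtype colon, a rise of 1.10 ± 0.12 with an adjusted p of 0.000174. Rrm2 was 19.8 and 22.2 FPKM in the tumours, against 10.1 and 10.6 FPKM in colon labelled knockout and 9.25 and 6.55 FPKM in wildtype colon, a rise of 1.14. Mad2l1 was 32.5 and 31.9 FPKM in the tumours, against 19.5 and 20.7 FPKM in colon labelled knockout and 13.5 and 10.6 FPKM in wildtype colon, a rise of 1.01. No group overlapped the tumours in these 3 genes. Mybl2 rose by 1.20, E2f1 by 0.69 and Foxm1 by 0.48. With either tumour left out 21 members passed. Beyond the 40, 20 of 26 other replication genes rose, 15 of 26 other mitosis genes rose and Pttg1 fell by 0.46, Cdk4 (1.40), Myc (1.26) and Cdkn2a (2.94) rose, and Ccnd3 and Cdk6 fell. All 6 smooth muscle markers fell (median -2.17) and all 4 colonocyte markers fell (median -3.89), and their part was not tested.

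The colon tumour from an Apc wildtype animal labelled knockout has no replicate, and was set against colon labelled knockout. None of the 40 passed the adjusted p in limma, with the spread taken from other groups, against 7.12% of all genes that rose, and 2 were higher at an unadjusted p under 0.05, against 15.8% of all genes. Rrm1 was 21.8 FPKM in the tumour, against 14.7 and 15.0 FPKM in colon labelled knockout, at 0.53 ± 0.20 with an adjusted p of 0.0954, and Ccne1 was 5.95 FPKM in the tumour, against 3.79 and 3.87 FPKM in colon labelled knockout. Medians were 0.40 for replication and 0.01 for mitosis, and in run 2 alone, where the tumour's library held fewer small-intestinal transcripts, 0.39 and 0.06. Cdc20, the activator of the anaphase-promoting complex, was 22.3 FPKM in the tumour, against 25.6 and 29.1 FPKM in colon labelled knockout. Beyond the 40, the G1 genes Ccnd1 (0.93), Cdk4 (0.77), Myc (0.99) and Ccnd2 (1.01) rose, and Cdkn2a was 14.6 FPKM in the tumour, against 0.0809 and 0.164 FPKM in colon labelled knockout, a rise of 3.80 ± 0.70 with an adjusted p of 0.00595. Fibroblast markers had a mean, as log2(FPKM + 1), of 7.08 in the tumour, against 5.87 and 5.57 in colon labelled knockout, and 4 of 5 rose. Macrophage markers had a mean of 4.91 in the tumour, against 3.95 and 4.16 in colon labelled knockout, and 2 of 5 rose, as did 3 of 4 endothelial markers. Colonocyte markers had a mean of 6.80 in the tumour, against 10.1 and 10.5 in colon labelled knockout. The part of these cells was not tested.

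At most 1 of the 40 genes passed in either comparison of duodenal tumours with duodenum. In tumours of Apc wildtype mice labelled knockout none of the 40 passed the adjusted p in limma, against 3.94% of all genes that rose, and 3 were higher at an unadjusted p under 0.05 over duodenum labelled knockout, against 10.4% of all genes. They were Rrm1, at 24.0 and 27.6 FPKM in the tumours, against 18.2 and 21.3 FPKM in the duodenum, Ttk, a checkpoint kinase, and Kif20a, a kinesin of cytokinesis. Medians were 0.19 for replication and 0.23 for mitosis. In tumours of Cftr heterozygous ApcMin mice, in run 1 libraries, 1 member passed, against 9.71% of all genes that rose. This was Mad2l1, at 31.2 and 24.6 FPKM in the tumours, against 17.9 and 20.3 FPKM in duodenum labelled knockout and 18.8 and 22.1 FPKM in wildtype duodenum, a rise of 0.47 ± 0.14 with an adjusted p of 0.0448. No group overlapped the tumours. The count was 6 without tumour 2 and 0 without duodenum labelled knockout 1 or 2, or with wildtype duodenum 1 left out. Tk1 was 33.9 and 25.0 FPKM in these tumours, against 38.1 and 35.7 FPKM in duodenum labelled knockout and 39.9 and 41.1 FPKM in wildtype duodenum, at -0.40 ± 0.15 with an adjusted p of 0.0928. Beyond the 40, Rfc3 (0.35), Gins4 (0.38) and Ndc80 (0.63) rose, and Ccnd1, cyclin D1, was 43.1 and 51.1 FPKM in the tumours, against 25.7 and 28.5 FPKM in duodenum labelled knockout and 20.3 and 19.0 FPKM in wildtype duodenum, a rise of 0.99.

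Normal duodenum held more of most members than normal colon, over both Cftr labels. In limma 34 of 40 rose, against 28.5% of all genes, with medians of 0.67 for replication and 0.46 for mitosis. Of the replication genes Ccne2 (0.26) did not pass, and of the mitosis genes Plk1 (0.12), Kif20a (0.07), Cenpe (0.20), Ttk (0.20) and Tpx2 (0.26) did not. Tk1 was 33.5 and 34.3 FPKM in duodenum labelled knockout and 39.4 and 39.1 FPKM in wildtype duodenum, against 21.8 and 20.8 FPKM in colon labelled knockout and 14.9 and 12.3 FPKM in wildtype colon, a rise of 1.06 ± 0.14 with an adjusted p of 3.13e-05. Birc5 was 59.2 and 60.2 FPKM in duodenum labelled knockout and 54.3 and 54.9 FPKM in wildtype duodenum, against 30.3 and 36.4 FPKM in colon labelled knockout and 19.9 and 14.7 FPKM in wildtype colon, a rise of 1.22 ± 0.17. The organs did not overlap for these 2 genes, and they did not overlap for 14 of 15 replication genes and 8 of 22 mitosis genes, against 33.6% of all genes that were higher without overlap. Mybl2 and Rrm2 each rose by 1.00. Beyond the 40, 23 other replication genes rose, Mcm10 (1.32) among them, and Orc1 fell by 0.65, while 13 other mitosis genes rose and 1, Pttg1, fell. All 12 small-intestinal enterocyte markers rose (median 7.17), all 5 fibroblast markers fell (median -1.22) and 3 of 6 smooth muscle markers fell (median -1.65), and their part was not tested.

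Between ApcMin tumours of ileum and colon 1 member changed. In limma Mki67 fell by 0.45 (SE 0.11, adjusted p = 0.01), against 23.8% of all genes that passed in either direction. It was 20.2 and 18.8 FPKM in ileum tumours labelled knockout and 16.0 and 16.2 FPKM in Cftr wildtype ileum tumours, against 22.2 and 25.2 FPKM in colon tumours labelled knockout and 24.9 and 26.5 FPKM in Cftr wildtype colon tumours. The organs did not overlap. List medians were 0.16 for replication and -0.03 for mitosis. Of all genes that passed, 56.0% were higher in ileum tumours, and 42.7% were after quantile normalization. The count of members was 6 without wildtype colon tumour 1 and 2 without wildtype ileum tumour 1. Beyond the 40, Rfc3 (0.37), Orc6 (0.36), Cdkn2b (1.31), Cdkn1c (0.82) and Rb1 (0.53) rose, and Orc1, Cenpf and Kif4 fell by 0.48, 0.36 and 0.33.

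Some members share reads with other genes, so their FPKM is less certain. In the GENCODE M21 annotation of GRCm38, exons of Mcm7 (chromosome 5), Tk1 (chromosome 11), Ccne2, Ccna2, Cdc20, Cdc25c, Plk1, Kif20a, Nusap1, Foxm1 and Top2a overlap exons of another annotated gene. Pcna, Tyms, Ccnb1 and Ccnb2 have named pseudogenes. Top2a lies at chr11:98992943-99024189, Ccnb1 at chr13:100778650-100786570, Ccnb2 at chr9:70407692-70421547, Tk1 at chr11:117815526-117826092, Mki67 at chr7:135689784-135716361 and Cdk1 at chr10:69335146-69352938, all on the minus strand. For the 11 specimens read in both runs, the mean run 1 minus run 2 difference was -0.10 for Mki67, 0.18 for Tk1, 0.18 for E2f1 and 0.21 for Cenpa on the log2(FPKM + 1) scale, which is why tumours read in 1 run were set against normal tissue of that run.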

How the data were processed

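RNA from tissue in RNAlater was isolated with an RNeasy kit, and polyA TruSeq libraries were made, per the labels' protocols. Each library was read on 2 lanes, and 11 of 23 specimens were read in 2 runs. Per the submitters' processing notes the tools were TopHat2 2.0.13, FastQC and Cuffnorm, with the mm10 build. The authors deposited FPKM values in 1 table of 68 columns, with no counts. FPKM divides fragments by transcript length and library size, so no counting interval was computed and depth limits genes of low FPKM most.

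Columns were averaged per specimen. A gene had to reach 1 FPKM in 2 specimens, which left 14098 genes, all 40 members among them. After log2(FPKM + 1), limma 3.58.1 was run in R 4.3.3 with lmFit, trended eBayes, 1 spread over all groups and Benjamini-Hochberg adjustment over all tested genes at 0.05. That scale understates changes of low genes. Tumours read in 1 run were compared in that run's columns. Wildtype duodenum was entered as 1 merged sample. Replicates that nothing ties to separate animals measure the spread between specimens only. Promoters came from RefSeq GRCm38.p6 (Python 3.11.15, pandas 2.3.3). On simulated data for normal colon, 73 of 100 genes changed 2-fold and 96 of 100 changed 4-fold were recovered among 14098, and 17 unchanged genes were called. Noise was drawn for each gene alone from a normal distribution. Changes under 2-fold were not simulated, so these shares do not give the power for the mitosis changes seen in normal colon.

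The members and the lists were chosen with earlier results of these data known. Full values are given for up to 4 genes of a list that passed with groups not overlapping, or else for 3 with the smallest p, with the regulators and 5 fixed genes throughout. Promoters are those of the 2 mitosis genes of highest mean FPKM with a CHR or CCAAT motif and the 2 replication genes of highest mean FPKM with an E2F motif in the printed bases. The rule as first written named any searched motif, by which Pcna, with a CCAAT box at -87, would come first among replication genes. Of the 2 windows of Mcm7 the first was used. Settings tried instead were quantile normalization, no filter, a pseudocount of 0.1, only the groups compared, single runs, a replicate block and leaving out each specimen. Replicate numbers mark animals only between normal duodenum and normal colon of the same Cftr label. There, deviations of same-numbered specimens had correlations of 0.0332 (labelled knockout) and 0.0103 (wildtype). The ApcMin ileum and colon tumours labelled knockout all share an animal number, as do the Cftr wildtype ones. Their replicate numbers mark tumours and not animals. Correlations of -0.0679 (labelled knockout) and 0.0744 (wildtype) for ileum and colon tumours therefore cannot check pairing by animal.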

Additional observations from a re-analysis of the deposited data

How the results depend on the processing

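With 2 specimens per group, single specimens decided several counts of members past an adjusted p of 0.05 in limma, and the causes were not tested. Leaving out each specimen in turn gave 0 to 1 for normal colon by Cftr label and 11 to 26 for members higher there at an unadjusted p under 0.05, 0 to 6 for ApcMin colon tumours by Cftr label, 0 to 5 for ApcMin colon tumours labelled knockout against colon labelled knockout, 21 to 36 for Cftr heterozygous colon tumours, 0 to 6 for Cftr heterozygous duodenal tumours, and 1 to 6 for ileum against colon tumours. With only the groups compared, which leaves fewer degrees of freedom, the counts were 0 for Cftr wildtype ApcMin colon tumours against wildtype colon, 6 for those labelled knockout and 0 for Cftr heterozygous duodenal tumours. For the heterozygous duodenal tumours the count was also 0 with no filter and after quantile normalization, and 2 with wildtype duodenum as 2 specimens; for ileum against colon tumours it was 2 after quantile normalization. Over all alternatives, 138 counts stayed within 1.5 times the main count, 18 were lower and 7 higher. The 138 include counts that were 0 in the main fit and stayed 0, which say nothing of comparisons with calls. List medians moved by less than the spread between specimens in 282 cases and by more in 20. Values of single genes kept their direction and side of the threshold in 867 cases, lost the call in 54 and gained it in 11, with no reversal. Quantile normalization moved the median of all genes by at most 0.065 on the log2 scale.

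With the replicate block, the counts were 0 for ApcMin colon tumours of Cftr wildtype mice and of mice labelled knockout against their colon, and 0 for Cftr heterozygous duodenal tumours; there the numbers pair no animals, and no other count left 1.5 times its main value under the block. Deviations of same-numbered specimens had a correlation of -0.0934 for the Cftr wildtype and -0.2008 for the knockout-labelled colon tumours against colon.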
